A study of Mus musculus with 32 samples.

Results

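The 10 genes described here are Wnt ligands, receptors and targets: the ligands *Wnt4*, *Wnt5a*, *Wnt7b*, *Wnt9a* and *Wnt9b*, the receptors *Fzd1* and *Fzd2*, the secreted inhibitor *Sfrp1*, and the target genes *Axin2* and *Nkd1*. They were taken by symbol from the table of raw read counts, in which they are 10 of 53700 genes. Counts came from poly(A) RNA of 32 kidneys of male C57BL/6 mice from a study of the iKspCre-*Pkd1*del line, in which tamoxifen activates a Cre recombinase that is expressed from a kidney tubule promoter and cuts out part of *Pkd1*. The 8 wildtype mice were 109 days old. Their genotype is labelled wildtype, while the growth protocol, which names only the iKspCre-*Pkd1*del line, describes the wildtype controls as mice that got no tamoxifen, and on that description all 3 groups carry the same alleles. The 12 PKD mice (Pkd1 KO in the labels) received 150 mg/kg tamoxifen on postnatal days 18 and 19 and were 95 days old. The 12 PKD + Salsalate mice were treated likewise, and from day 81 they also ate food with 2.5 g/kg salsalate for 2 weeks until they too were 95 days old. Gene deletion, tamoxifen and age therefore cannot be told apart in a comparison with wildtype. The comparisons ask how the Wnt genes differ in kidneys after *Pkd1* deletion, and whether 2 weeks of salsalate, a prodrug of salicylate, changes them.

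Wnt proteins are secreted lipid-modified ligands that bind Frizzled receptors on neighbouring cells. In the canonical branch, receptor binding stops the destruction of β-catenin, which then acts with TCF/LEF factors in the nucleus, and *Axin2* and *Nkd1* are among the genes it switches on and in turn dampen the signal. Other branches work without β-catenin, through planar cell polarity or calcium. In the kidney, *Wnt9b* from the ureteric bud and *Wnt4* in the mesenchyme drive the formation of nephrons in the embryo, and *Wnt7b* is made by the collecting duct.

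Per kidney, 11193136 to 109807664 reads were counted on genes, and 1 CPM (a count scaled to the size of its library) stood for about 11.2 reads in the shallowest library. Levels below are CPM after scaling by trimmed mean of M-values (TMM). Of the 8 wildtype libraries, 5 (replicates 1 to 5, called R-named here) have a name with a final R that the other 3 (called unmarked) and all PKD libraries lack, and the R-named libraries stood apart. Between 73.6% and 76.4% of their alignments were counted on genes, against 80.9% to 83.1% in the unmarked wildtype libraries and 74.1% to 82.9% in PKD libraries. What the R stands for is not given in the sources used here, so values against each set stand beside the pooled value. PKD replicate 10 held liver transcripts, with a summed CPM of 2931 over 6 liver genes against a PKD median of 38.6. The deleted gene *Pkd1* was at 68.7 ± 10.9 CPM in wildtype (SD, n = 8), 92.1 ± 15.1 (SD, n = 12) in PKD and, with salsalate, 92.7 ± 15.1 (SD, n = 12). That count spans exons outside the deleted part and other cells of the kidney, so it is no check of the deletion. Markers of the proximal tubule and of the collecting duct (10 genes each) were above 0 in every kidney.

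In PKD kidneys 8 of the 10 Wnt genes differed from wildtype. The ligands *Wnt4*, *Wnt5a*, *Wnt7b* and *Wnt9a*, the receptors *Fzd1* and *Fzd2* and the target *Nkd1* rose, by 1.26-fold to 1.94-fold, and the inhibitor *Sfrp1* fell to 0.721 of its wildtype level. *Wnt9b* and *Axin2* did not pass the test. Over all 13961 genes tested, 49.1% passed the same test (24.1% higher and 25.0% lower), so a call is common in this comparison. Against the R-named libraries 9 of the 10 genes were called, where 59.8% of all genes were. Against the 3 unmarked libraries 3 of the 10 were called, where 40.5% of all genes were. *Wnt9a*, *Nkd1* and *Sfrp1* were called in the same direction against each set. Of these, *Wnt9a* passed the filter on low values only through PKD and PKD + Salsalate kidneys, with 0 wildtype kidneys over it. Short salsalate treatment changed none of the 10 genes at an adjusted p of 0.05.

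**Figure D1:**
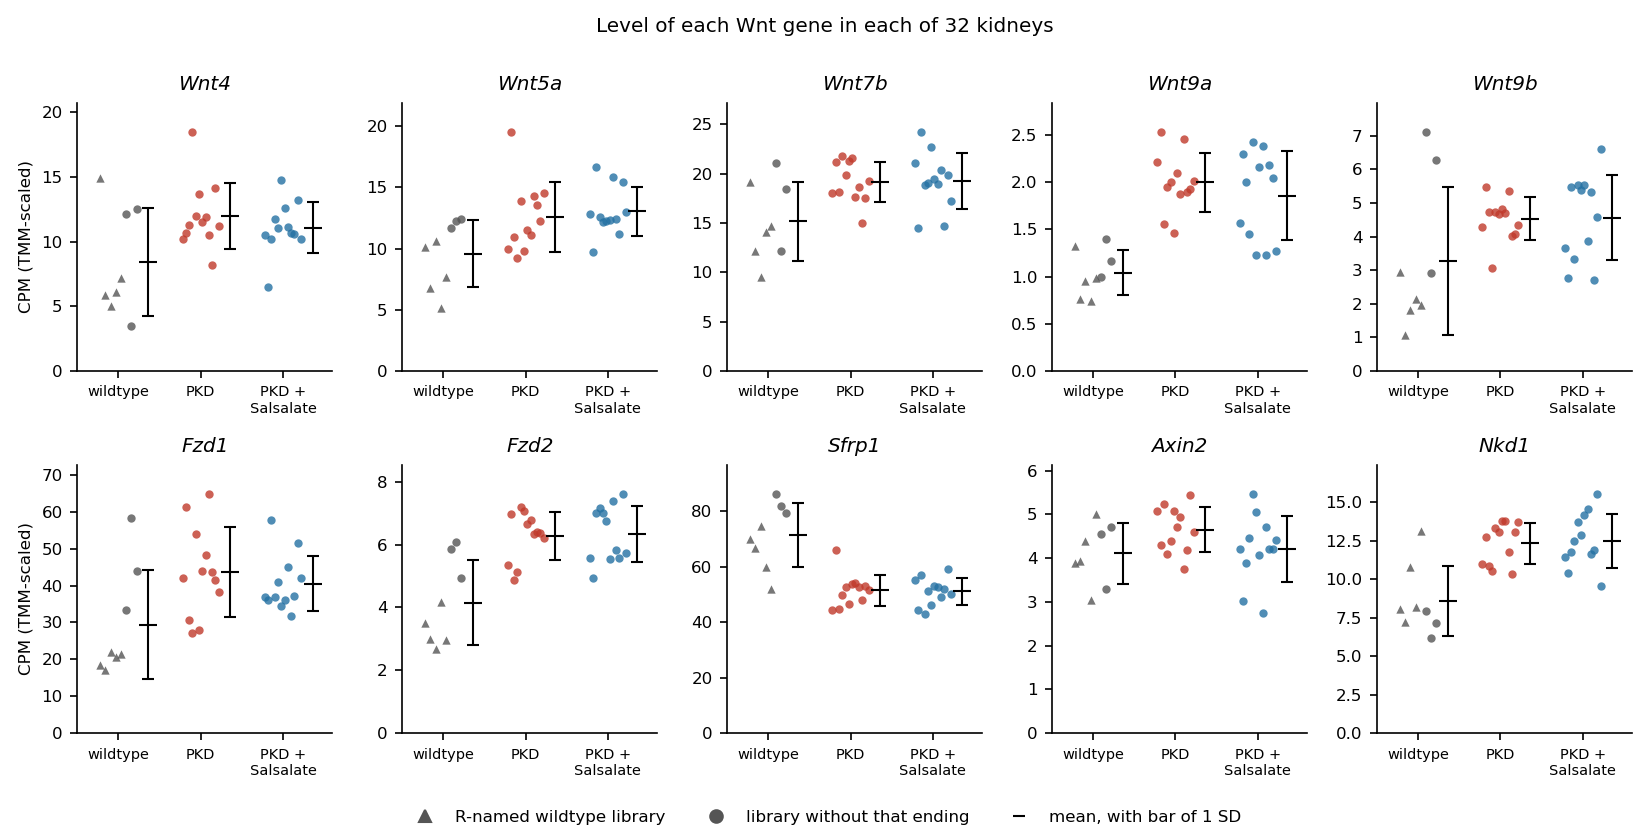
Level of each of the 10 genes in each kidney, in TMM-scaled CPM from 0, for 8 wildtype, 12 PKD and 12 PKD + Salsalate kidneys. Triangles are the 5 R-named wildtype libraries, circles all others, and the black marks give the mean and 1 SD. *Wnt9a* is the gene whose PKD and wildtype kidneys do not overlap, and the PKD and PKD + Salsalate kidneys overlap for every gene.

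The genes differed widely in level. Scaled to 1 kb of exon (RPKM, with the summed exon length of each gene), *Sfrp1* had the highest mean in PKD kidneys at 10.7 RPKM (range 9.19 to 13.7). *Fzd1* followed at 10.4 RPKM (6.48 to 15.5), and these 2 overlapped. *Wnt7b* was the highest ligand at 3.74 RPKM (2.92 to 4.25), below every *Fzd1* value, and *Wnt4* was next at 2.38 RPKM (1.63 to 3.67), overlapping *Wnt7b*. *Fzd2* (1.71 RPKM), *Wnt5a* (1.56 RPKM) and *Nkd1* (1.49 RPKM) lay close together with overlapping ranges. *Wnt9b* (1.00 RPKM, 0.679 to 1.21) lay below every *Nkd1* value, and *Axin2* (0.671 RPKM, 0.542 to 0.786) and *Wnt9a* (0.511 RPKM, 0.373 to 0.649) were lowest. In wildtype kidneys *Sfrp1* again had the highest mean (14.8 RPKM) and *Wnt9a* the lowest (0.266 RPKM), and *Wnt5a* (1.19 RPKM) stood just above *Fzd2* (1.13 RPKM).

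Promoter sequence is shown for 3 genes that span the pattern. *Wnt9a* had the largest pooled rise, *Nkd1* was the target that rose against each wildtype set, and *Axin2* was the target that did not pass. The RefSeq table (GRCm38.p6) holds promoters of 6 of the 10 genes (*Wnt4*, *Wnt9a*, *Wnt9b*, *Fzd1*, *Axin2* and *Nkd1*). Each line gives the 250 bases before the transcription start, 5′ to 3′ on the gene's strand, with CpG sites in capitals. They are *Wnt9a* at chr11:59306680-59306929, *Nkd1* at chr8:88527383-88527632 and *Axin2* at chr11:108920099-108920348, all on the plus strand.
Wnt9a: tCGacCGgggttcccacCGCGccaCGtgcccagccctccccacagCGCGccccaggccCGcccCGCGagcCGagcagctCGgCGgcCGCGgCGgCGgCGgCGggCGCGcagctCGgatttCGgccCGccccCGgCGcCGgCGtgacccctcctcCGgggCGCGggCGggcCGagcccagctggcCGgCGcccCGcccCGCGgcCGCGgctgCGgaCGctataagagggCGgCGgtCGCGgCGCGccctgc
Nkd1: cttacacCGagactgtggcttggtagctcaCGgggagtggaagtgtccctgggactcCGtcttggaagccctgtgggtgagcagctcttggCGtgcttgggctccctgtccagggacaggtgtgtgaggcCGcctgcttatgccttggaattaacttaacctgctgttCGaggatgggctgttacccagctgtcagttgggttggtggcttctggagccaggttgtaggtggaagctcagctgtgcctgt
Axin2: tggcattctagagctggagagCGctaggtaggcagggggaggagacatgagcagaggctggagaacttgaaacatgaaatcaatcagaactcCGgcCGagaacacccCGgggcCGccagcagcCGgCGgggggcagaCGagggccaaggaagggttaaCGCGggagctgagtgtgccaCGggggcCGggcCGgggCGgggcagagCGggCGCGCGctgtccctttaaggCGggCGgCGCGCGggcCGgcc
The *Wnt9a* stretch holds 48 CpG sites, the *Axin2* stretch 24 and the *Nkd1* stretch 6, where the median of the 32851 promoters in the table is 6. The *Wnt4* stretch is also dense, with 44 CpG sites. The 7-letter TCF/LEF core, CTTTG followed by 2 bases that are each A or T, was searched on both strands. None of the 6 stretches holds one, and 14.8% of all promoters do. That says only that these letters are not in this window.

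*Wnt9a* (ENSMUSG00000000126, GRCm39 chromosome 11, 59197567 to 59224378), a ligand with a known part in joint development, showed the largest difference in the pooled comparison. It was between 0.744 and 1.40 CPM in wildtype kidneys (median 0.994) and between 1.46 and 2.54 in PKD kidneys (median 1.98). All 12 PKD kidneys lay above all 8 wildtype kidneys, a separation found for 7.28% of the genes tested and for no other of the 10. The log2 fold change was 0.95 (SE 0.16, 95% confidence interval 0.64 to 1.27, adjusted p = 6.09e-06 by edgeR's quasi-likelihood test with Benjamini-Hochberg adjustment). It was 1.10 against the R-named libraries and 0.79 against the unmarked 3 (edgeR adjusted p = 1.87e-05 and 0.00369). Against the R-named libraries *Wnt9b* (1.21) and *Fzd1* (1.13) rose more, and against the unmarked 3 *Nkd1* did (0.802, beside 0.789 for *Wnt9a*). *Wnt9a* was the scarcest of the 10, with 10 to 32 counts per wildtype kidney and 19 to 124 per PKD kidney. It passed the filter on low values through PKD kidneys alone, since 0 wildtype, 8 PKD and 7 PKD + Salsalate kidneys were over it. Without a filter the log2 fold change was 0.97 (edgeR adjusted p = 2.68e-05).

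*Wnt4* (ENSMUSG00000036856, chromosome 4, 137004373 to 137027037) was between 3.49 and 15.0 CPM in wildtype kidneys (median 6.66) and between 8.20 and 18.5 in PKD kidneys (median 11.4). The wildtype kidneys were the more spread, with replicates 1, 6 and 8 inside the PKD range and the other 5 below it. *Wnt4* rose by 0.50 on the log2 scale (SE 0.18, edgeR adjusted p = 0.0274). It was 0.61 higher against the R-named libraries (adjusted p = 0.00608) and 0.32 against the unmarked 3 (adjusted p = 0.272). The call was lost when any of wildtype replicates 2, 3, 4, 5 and 7 was left out (edgeR adjusted p between 0.0510 and 0.0687).

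*Wnt7b* (ENSMUSG00000022382, chromosome 15, 85419638 to 85466674) was between 9.48 and 21.1 CPM in wildtype kidneys (median 14.4) and between 15.0 and 21.8 in PKD kidneys (median 18.9). All 12 PKD kidneys lay above the wildtype median, though only 4 lay above the highest wildtype kidney. It rose by 0.33 on the log2 scale (SE 0.11, edgeR adjusted p = 0.0142), the smallest called rise among the 10. The value was 0.46 against the R-named libraries and 0.14 against the unmarked 3 (edgeR adjusted p = 0.00146 and 0.398).

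*Wnt5a* (ENSMUSG00000021994, chromosome 14, 28226495 to 28249405), the best known ligand of the branches without β-catenin, was between 5.13 and 12.4 CPM in wildtype kidneys (median 10.4). In PKD kidneys it was between 9.22 and 19.6 CPM (median 11.9), and 9 of 12 lay above the wildtype median. It rose by 0.39 on the log2 scale (SE 0.14, edgeR adjusted p = 0.0224). The 3 unmarked wildtype libraries, at 11.7 to 12.4 CPM, lay within the PKD range, and against them the log2 fold change was 0.07 (edgeR adjusted p = 0.764). Against the R-named ones it was 0.65 (edgeR adjusted p = 0.000800). The call was lost without wildtype replicate 2, 4 or 5 or without PKD replicate 2 (edgeR adjusted p between 0.0507 and 0.0734).

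*Wnt9b* (ENSMUSG00000018486, chromosome 11, 103618189 to 103640655, minus strand) had no call in the pooled comparison. Its level was between 1.08 and 7.13 CPM in wildtype kidneys (median 2.54) and between 3.07 and 5.49 in PKD kidneys (median 4.70). The PKD range lay inside the wildtype range. Wildtype replicates 6 and 8, at 7.13 and 6.28 CPM, were above every PKD kidney, and all 5 R-named libraries were below every PKD kidney. The log2 fold change was 0.42 (95% confidence interval -0.05 to 0.89, edgeR adjusted p = 0.131). It was 1.21 against the R-named libraries (adjusted p = 1.01e-05) and -0.27 against the unmarked 3 (adjusted p = 0.337), so its direction depends on the wildtype set. Leaving out wildtype replicate 6 or 8 gave a call (edgeR adjusted p = 0.0101 and 0.0224).

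The receptors divided the wildtype kidneys in the same way. *Fzd1* (ENSMUSG00000044674, chromosome 5, 4803839 to 4808035, minus strand) was between 17.0 and 21.9 CPM in the 5 R-named libraries and between 33.3 and 58.3 in the unmarked 3. In PKD kidneys it was between 27.2 and 64.9 CPM (median 42.9), which covers the 3 and lies above the 5. Pooled, *Fzd1* rose by 0.57 on the log2 scale (SE 0.19, edgeR adjusted p = 0.0145). The value was 1.13 against the R-named libraries (adjusted p = 1.45e-06) and -0.03 against the unmarked 3 (adjusted p = 0.908). *Fzd2* (ENSMUSG00000050288, chromosome 11, 102495222 to 102498884) was between 2.67 and 6.09 CPM in wildtype kidneys (median 3.83) and between 4.86 and 7.20 in PKD kidneys (median 6.37). Of the 12 PKD kidneys 9 lay above the highest wildtype kidney. *Fzd2* rose by 0.58 on the log2 scale (SE 0.13, edgeR adjusted p = 0.000390), with 0.94 against the R-named libraries and 0.17 against the unmarked 3 (edgeR adjusted p = 1.61e-07 and 0.301).

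*Sfrp1* (ENSMUSG00000031548, chromosome 8, 23901263 to 23939648), which binds Wnt proteins outside the cell and keeps them from their receptors, was the gene that fell. It was between 52.1 and 86.4 CPM in wildtype kidneys (median 72.5) and between 44.4 and 66.0 in PKD kidneys (median 52.2). All 12 PKD kidneys lay below the wildtype median, and 6 lay below the lowest wildtype kidney. *Sfrp1* fell by 0.47 on the log2 scale (SE 0.08, edgeR adjusted p = 8.46e-06). It was -0.34 against the R-named libraries (adjusted p = 0.000634) and -0.68 against the unmarked 3 (adjusted p = 5.95e-07). With any 1 kidney left out it stayed between -0.53 and -0.43.

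The 2 target genes gave different results, though the difference between them was not tested. *Nkd1* (ENSMUSG00000031661, chromosome 8, 89247890 to 89324577), which binds Dishevelled and restrains the signal, was between 6.16 and 13.1 CPM in wildtype kidneys (median 7.98) and between 10.3 and 13.8 in PKD kidneys (median 12.9). All but wildtype replicates 3 and 5 lay below the PKD range. It rose by 0.54 on the log2 scale (SE 0.11, edgeR adjusted p = 0.000126), by 0.37 against the R-named libraries and by 0.80 against the unmarked 3 (edgeR adjusted p = 0.00690 and 8.49e-06). *Axin2* (ENSMUSG00000000142, chromosome 11, 108811169 to 108841609), a scaffold of the complex that destroys β-catenin, was between 3.05 and 5.02 CPM in wildtype kidneys (median 4.17) and between 3.75 and 5.45 in PKD kidneys (median 4.66). The groups overlapped over most of their ranges. Its log2 fold change was 0.17 (95% confidence interval -0.05 to 0.40, edgeR adjusted p = 0.188), and it was 0.19 and 0.14 against the 2 wildtype sets (edgeR adjusted p = 0.222 and 0.471). The interval leaves room for a rise of up to 1.32-fold.

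**Figure D2:**
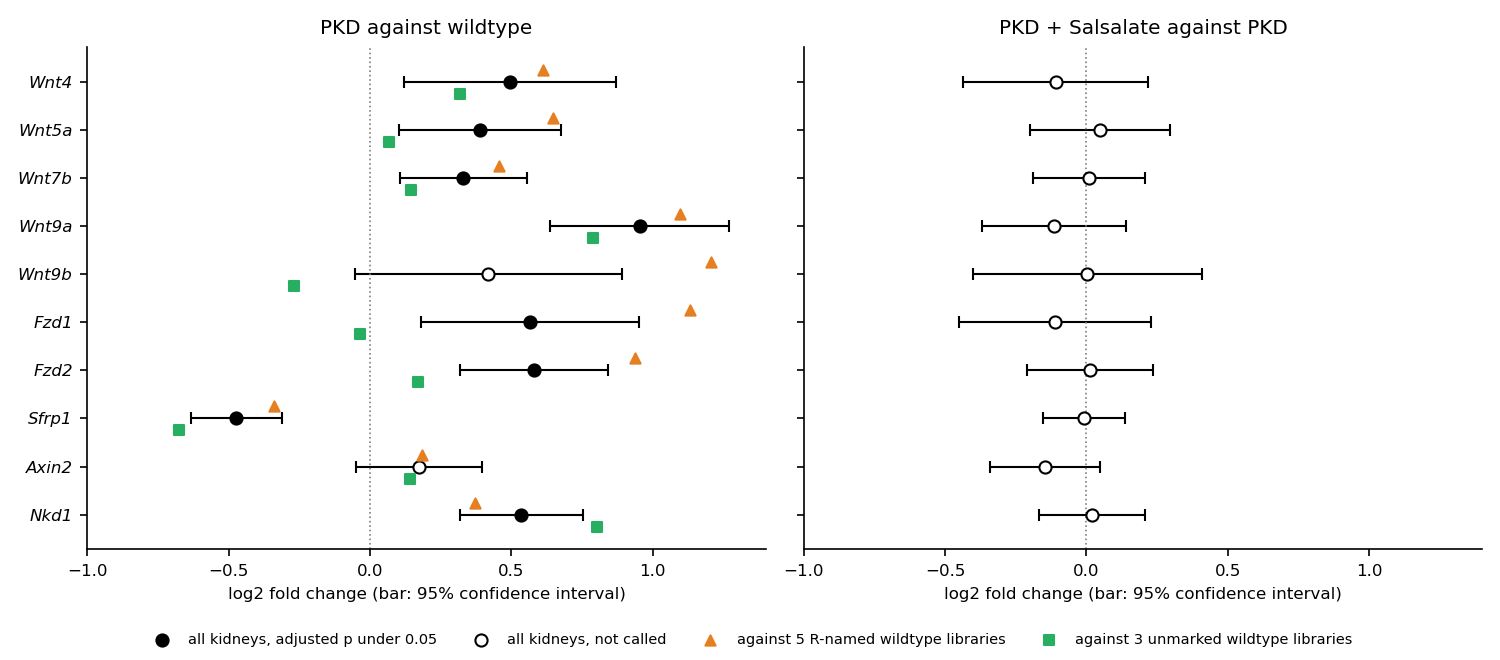
Log2 fold changes of the 10 genes, with 95% confidence intervals as bars, for PKD against wildtype (left) and PKD + Salsalate against PKD (right). Filled circles have an adjusted p under 0.05, triangles are values against the 5 R-named wildtype libraries and squares against the 3 unmarked. On the left the triangles and squares lie apart for *Wnt9b* (1.21 and -0.27) and *Fzd1* (1.13 and -0.03), and on the right every interval spans 0.

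Markers of other cell types differed between the same groups. The summed CPM of 10 stromal markers (*Pdgfra*, *Pdgfrb*, collagens and others) was between 387 and 608 in wildtype kidneys, between 964 and 1505 in PKD kidneys and between 857 and 1890 in PKD + Salsalate kidneys, and all 10 rose in PKD kidneys. The sum of 6 macrophage markers was between 118 and 163 CPM in wildtype and between 233 and 329 in PKD kidneys, and all 6 rose. The sums of collecting duct markers overlapped, at 582 to 944 CPM in wildtype and 659 to 1037 in PKD kidneys. Of these 10 genes, however, 4 fell, 1 rose and 5 were not called. The sums of proximal tubule markers separated the wildtype sets, at 8576 to 10953 CPM in the R-named libraries and 13668 to 15727 in the unmarked 3, with 9154 to 11977 in PKD kidneys. Against all wildtype kidneys 4 of these 10 genes fell, 1 rose and 5 were not called. Of 6 endothelial markers 3 rose and 2 fell. These marker calls are against all wildtype kidneys, where 49.1% of all genes were called. In the same direction against each wildtype set, 7 of the 10 stromal and all 6 macrophage markers were called. So were 3 of the 10 collecting duct, 3 of the 10 proximal tubule and 3 of the 6 endothelial markers. No stromal, macrophage, collecting duct, proximal tubule or endothelial marker was at 0 in any kidney. The part of these shifts in the Wnt results was not tested, and in RNA of bulk kidney tissue a change in the number of cells of a type and a change in RNA per cell cannot be told apart.

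After short salsalate treatment the 10 genes stayed close to their levels in untreated PKD kidneys. In PKD + Salsalate kidneys *Wnt9a* was between 1.23 and 2.43 CPM (median 2.02) and *Nkd1* between 9.57 and 15.6 (median 12.2). *Sfrp1* was between 43.1 and 59.4 CPM (median 51.7) and *Fzd1* between 31.6 and 57.7 (median 37.0). Each of these ranges overlaps the PKD range. The edgeR test called 0 of the 10 genes, where 0.580% of the 13961 genes were called, and 0 had an unadjusted p under 0.05. With DESeq2 or limma-voom 0 of the 10 were also called, and the share of all genes called by these was not computed. Log2 fold changes ran from -0.15 for *Axin2* to 0.05 for *Wnt5a*, with a median of -0.003 over the 10 genes and -0.01 over all genes.

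The confidence intervals give what the data can still hold. For *Axin2*, which was between 2.74 and 5.47 CPM with salsalate (median 4.21) and lower than the PKD median in 9 of 12 kidneys, the interval was -0.34 to 0.05 on the log2 scale (edgeR adjusted p = 0.673). *Wnt9a* had a log2 fold change of -0.11 (interval -0.37 to 0.14), with 4 treated kidneys below the lowest PKD kidney and 7 above the PKD median. *Sfrp1* had the narrowest interval, -0.15 to 0.14 around -0.01. *Nkd1* (0.02, interval -0.17 to 0.21) and *Wnt7b* (0.01, interval -0.19 to 0.21) were nearly as narrow. The widest were those of *Wnt9b* (-0.40 to 0.41) and *Fzd1* (-0.45 to 0.23). These intervals do not show that the levels are the same. For each of the 8 genes called in PKD kidneys, a change that undoes the pooled difference between PKD and wildtype lies outside the interval. That difference was taken as a fixed value, though it has its own interval (0.12 to 0.87 for *Wnt4*) and shares the PKD kidneys. With the difference from the unmarked 3 wildtype libraries in its place, such a change lies inside the interval for 5 of the 8 (*Wnt4*, *Wnt5a*, *Wnt7b*, *Fzd1* and *Fzd2*). Those 5 differences ran from -0.03 to 0.32 and none was called, with 3 wildtype kidneys on that side and no interval given. Neither count decides whether salsalate undid a difference.

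Compared with wildtype, PKD + Salsalate kidneys had calls for 7 of the 10 genes (6 higher and 1 lower), where 44.9% of all genes were called (21.8% higher and 23.2% lower). This comparison shares its wildtype kidneys with that of untreated PKD. The log2 fold change of *Wnt9a* was 0.84 (edgeR adjusted p = 5.08e-05), beside 0.95 without salsalate. That of *Fzd2* was 0.59 (edgeR adjusted p = 0.000356) and that of *Nkd1* 0.55 (edgeR adjusted p = 9.71e-05). *Sfrp1* stood at -0.48 (edgeR adjusted p = 8.06e-06). The other calls were *Wnt5a* (0.44, edgeR adjusted p = 0.0118), *Wnt7b* (0.34, adjusted p = 0.0132) and *Fzd1* (0.46, adjusted p = 0.04997). The *Fzd1* call was lost in 21 of the 32 fits that left out 1 kidney, with adjusted p of up to 0.119. *Wnt4* missed the threshold at 0.39 (edgeR adjusted p = 0.0882), and *Axin2* was at 0.03 (adjusted p = 0.852). None of the 10 genes separated these groups without overlap, where 6.39% of all genes did. Against the 3 unmarked wildtype libraries, *Wnt9a*, *Sfrp1* and *Nkd1* were called, and the share of all genes called there was not computed.

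The rest of the pathway was read from a list of 91 other genes, of which 62 passed the filter on low values. In PKD kidneys 25 of them rose, 11 fell and 26 did not pass the test, where 49.1% of all genes were called, with a median log2 fold change of 0.18 (-0.01 over all genes). Against the R-named libraries 44 were called (59.8% of all genes) and against the 3 unmarked libraries 27 (40.5% of all genes), of which 13 were called in the same direction in each. Of 3 other ligands high enough to test 1 rose and 2 fell. *Wnt5b* was at -0.30 (edgeR adjusted p = 0.0444) and was called against neither the R-named libraries nor the unmarked 3 (-0.30 and -0.33, edgeR adjusted p = 0.0742 and 0.128). *Wnt10a* rose from 0.450 ± 0.172 CPM in wildtype (SD, n = 8) to 3.41 ± 0.686 in PKD kidneys (SD, n = 12), a log2 fold change of 2.89 that was 2.95 and 2.82 against the 2 wildtype sets. It was tested only through the groups in which it was high, since 0 wildtype, 12 PKD and 12 PKD + Salsalate kidneys were over the filter, and it was the 1 gene of the 62 with no wildtype kidney over it. *Wnt11*, a ligand of the ureteric tip in the embryo, fell by 1.06 on the log2 scale. Its values were -0.65 against the R-named libraries and -1.53 against the unmarked 3 (edgeR adjusted p = 0.00557 and 1.83e-07).

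Among 12 other receptors and co-receptors edgeR called 7, each of them higher, like *Fzd1* and *Fzd2*, where 49.1% of all genes were called (24.1% higher). *Ptk7* rose by 0.73 on the log2 scale and *Ror1*, a receptor for Wnt5a, by 0.61. Of the 12, 10 were called against the R-named libraries (59.8% of all genes) and 3 against the unmarked 3 (40.5% of all genes). *Ptk7* was called higher against each (0.99 and 0.40). *Lrp5* was called in opposite directions (0.41 and -0.43, edgeR adjusted p = 0.00314 and 0.0128). *Ryk* (0.18) was also called against the unmarked 3, and *Ror1* was not (0.21, edgeR adjusted p = 0.307). Among 7 tested secreted inhibitors 3 rose and 1 fell. *Frzb*, a relative of *Sfrp1*, rose by 0.99, opposite to *Sfrp1*. *Dkk2* fell by 0.66 in the pooled comparison, but its sign turned with the wildtype set, at -1.10 against the R-named libraries and 0.49 against the unmarked 3 (edgeR adjusted p = 1.04e-09 and 0.00690).

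Of 11 other target and feedback genes 7 rose, 2 fell and 2 did not pass, where 49.1% of all genes were called. The 2 that fell were *Notum* (-0.54) and *Rnf43* (-0.29). Neither was called against the R-named libraries (-0.02 and -0.13, edgeR adjusted p = 0.881 and 0.267). Both were called lower against the unmarked 3 (-1.11 and -0.52, edgeR adjusted p = 3.24e-09 and 0.000379). *Sp5* (-0.06) and *Znrf3* (0.14) did not pass in the pooled comparison. *Sp5* was called lower against the unmarked 3 (-0.44, edgeR adjusted p = 0.00191) and *Znrf3* higher against the R-named libraries (0.38, edgeR adjusted p = 0.0335). Of the 11 genes, 8 were called against the R-named libraries (59.8% of all genes) and 8 against the unmarked 3 (40.5% of all genes). In the same direction against each set, 5 were called. *Cd44*, a cell adhesion receptor that stromal and immune cells also carry, rose from 3.24 ± 1.08 CPM (SD, n = 8) to 12.0 ± 2.38 (SD, n = 12), a log2 fold change of 1.93. *Nkd2*, the relative of *Nkd1*, rose by 1.78 (1.50 and 2.24 against the wildtype sets). The median of these 11 genes was 0.60. Of the 18 genes of intracellular signal transduction 3 rose, 3 fell and 12 did not pass, with a median of 0.04 and a range of -0.31 to 0.33. Among them *Bcl9*, a β-catenin cofactor, rose by 0.33 and *Ctnnb1*, which encodes β-catenin, fell by 0.31, and neither was called against the 3 unmarked wildtype libraries (-0.08 and -0.02). In the planar cell polarity branch *Celsr1* rose by 0.45 and *Daam2* fell by 0.34 in the pooled comparison, with 3 of 8 higher and 2 lower. Against the 3 unmarked wildtype libraries both signs turned (-0.06 and 0.11, edgeR adjusted p = 0.720 and 0.459), and 0 of the 8 were called in the same direction against each set. Of the secretion genes, pooled, *Wls* was 0.26 higher and *Porcn* 0.31 lower. *Wls* was 0.54 higher against the R-named libraries and -0.10 against the unmarked 3 (edgeR adjusted p = 1.53e-05 and 0.487), and *Porcn* was -0.20 and -0.47 (edgeR adjusted p = 0.105 and 0.00242). *Lgr4*, the tested R-spondin receptor, was not called in the pooled comparison (0.26).

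**Figure D3:**
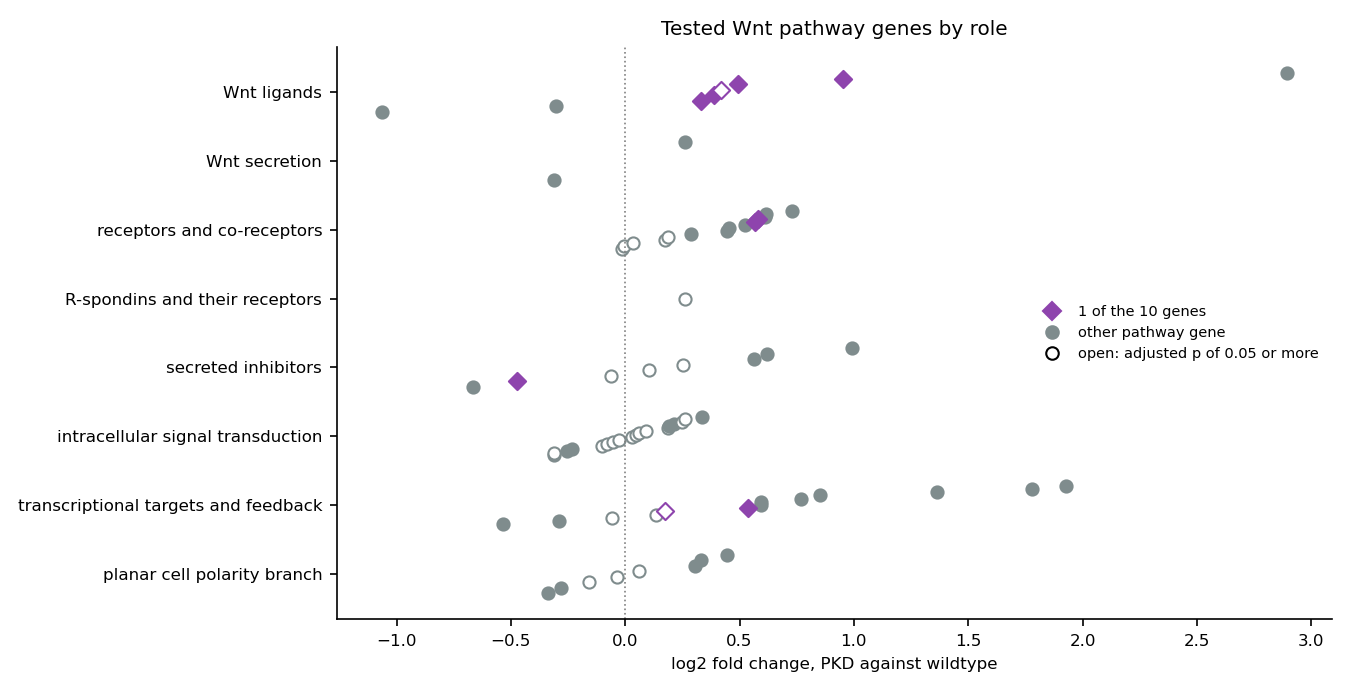
Log2 fold change in PKD against wildtype kidneys of each tested Wnt pathway gene, by role. Diamonds are the 10 genes and circles the 62 others, and open marks have an adjusted p of 0.05 or more. The largest rises are the ligand *Wnt10a* (2.89) and the targets *Cd44* (1.93) and *Nkd2* (1.78), and the genes of intracellular signal transduction lie between -0.31 and 0.33.

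With salsalate, edgeR called 0 of these 62 genes against untreated PKD kidneys, where 0.580% of all genes were called. Of the 62, 4 had an unadjusted p under 0.05, beside 1436 of all 13961 genes. The median log2 fold change of the 62 was -0.03. The 4 were *Ccnd1*, *Cd44*, *Celsr2* and *Porcn*, named here after their values were seen. *Ccnd1*, which encodes cyclin D1, was 533 ± 49.0 CPM in PKD (SD, n = 12) and 446 ± 30.5 with salsalate (SD, n = 12), a log2 fold change of -0.26 (edgeR adjusted p = 0.0769). *Cd44* was 12.0 ± 2.38 and 8.64 ± 2.68 CPM, a log2 fold change of -0.48 (edgeR adjusted p = 0.119). DESeq2 called *Ccnd1* (adjusted p = 0.0267) and limma-voom called *Cd44* (adjusted p = 0.0336). Against wildtype, 22 of the 62 were higher in PKD + Salsalate kidneys and 10 lower, where 44.9% of all genes were called (21.8% higher and 23.2% lower). *Wnt10a* was at 2.76 and *Nkd2* at 1.66. *Amer1* (-0.47) and *Daam1* (-0.36) were the lowest called genes of their groups there, and *Lgr4* was called at 0.33. None of these 3 was called against the unmarked wildtype libraries, where *Amer1* was at 0.33, *Daam1* at -0.05 and *Lgr4* at -0.09 (edgeR adjusted p = 0.105, 0.660 and 0.682).

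Within the PKD kidneys some pairs of the Wnt genes varied together, and how often pairs of other genes do so was not measured. Over the 24 PKD kidneys, each centred on its group mean, 45 pairs of the 10 genes were correlated on log2 CPM. Of these, 36 were positive, 9 were negative and 8 had an adjusted p under 0.05 (100000 permutations within groups, 2-sided, Benjamini-Hochberg over the 45). The closest pair was *Wnt5a* and *Fzd1*, with Pearson's r of 0.76 (permutation p = 6.00e-05, adjusted 0.00270) and Spearman's rho of 0.69 (permutation p = 0.000550, adjusted 0.0247). Without the 2 kidneys farthest from the *Wnt5a* median r was 0.68, and it was 0.75 in the PKD group and 0.79 in the PKD + Salsalate group alone. *Wnt5a* and *Sfrp1* followed with r = 0.72 (rho 0.58, permutation p = 0.000200 and 0.00427, adjusted 0.00450 and 0.0480, r = 0.54 without the 2 farthest). *Fzd2* and *Nkd1* had r = 0.68 (rho 0.62, permutation p = 0.000410 and 0.00243, adjusted 0.00615 and 0.0364, r = 0.62 without the 2 farthest). *Fzd1* and *Sfrp1* had r = 0.64 (rho 0.64, permutation p = 0.000920 and 0.00112, adjusted 0.0103 and 0.0252, r = 0.72 without the 2 farthest). The other 4 pairs were *Wnt5a* with *Fzd2*, *Wnt4* with *Wnt7b*, *Wnt9a* with *Fzd1* and *Fzd1* with *Fzd2*, with r between 0.52 and 0.59 (permutation p between 0.00274 and 0.00716, adjusted 0.0186 to 0.0403). Their rho was between 0.44 and 0.55 (permutation p between 0.00604 and 0.0340), and by rank only *Wnt5a* with *Fzd2* was called (adjusted p = 0.0496, against 0.0571 to 0.139 for the other 3). Without the 2 farthest kidneys the r of these 4 pairs was between 0.41 and 0.58, and of the 8 pairs 4 then had an adjusted p under 0.05. *Axin2* had no pair among the 8.

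Over all 32 kidneys, with each wildtype set and each PKD group centred on its own mean, 5 of the 8 pairs were called. *Fzd2* with *Nkd1* went to r = 0.29 (adjusted permutation p = 0.362) and *Wnt5a* with *Fzd2* to 0.25 (adjusted permutation p = 0.419). *Fzd1* with *Fzd2* missed the threshold at r = 0.42 (adjusted permutation p = 0.0908). *Wnt5a* with *Fzd1* was at r = 0.60 and *Wnt4* with *Wnt7b* at 0.77 (adjusted permutation p = 0.00292 and 0.00135).

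**Figure D4:**
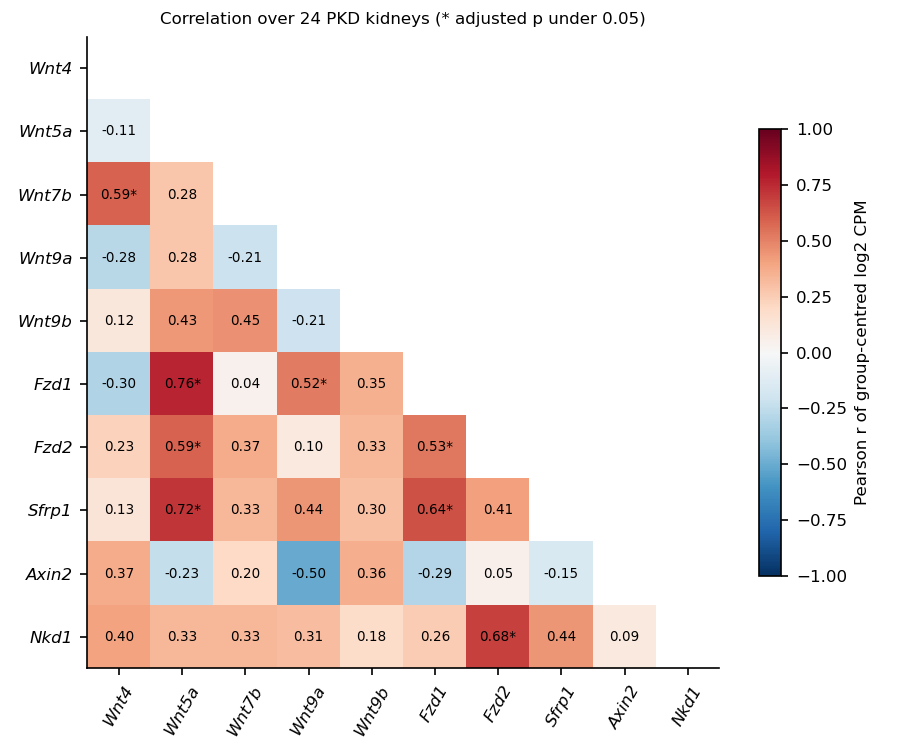
Pearson's r between each pair of the 10 genes over the 24 PKD kidneys, from log2 CPM centred on the group mean, with a star where the permutation p adjusted over the 45 pairs was under 0.05. *Wnt5a*, *Fzd1*, *Fzd2* and *Sfrp1* hold 5 of the 8 starred pairs among themselves, and *Axin2* holds none.

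The same kidneys also differed in depth and in cell type markers. Each of the 10 genes was correlated with the log2 total count and with 4 marker sums (stroma, macrophage, collecting duct and proximal tubule), 50 relations, of which 10 had an adjusted permutation p under 0.05. *Fzd1* followed the total count, with r = 0.75 (rho 0.67, permutation p = 2.00e-05 and 0.00107, adjusted 0.00100 and 0.0178, r = 0.71 without the 2 farthest). *Wnt5a* had r = 0.52 with the total count (rho 0.28, permutation p = 0.00829 and 0.207, adjusted 0.0414 and 0.470), and this rested on 2 kidneys, since r was 0.21 without them. With the total count regressed out, 4 of the 45 pairs of Wnt genes kept an adjusted p under 0.05, *Fzd2* with *Nkd1* (r = 0.69), *Wnt4* with *Wnt7b* (0.69), *Wnt5a* with *Fzd1* (0.65) and *Wnt5a* with *Sfrp1* (0.62).

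*Nkd1* followed the stromal marker sum (r = 0.71, rho 0.69, permutation p = 0.000310 and 0.000450, adjusted 0.00517 and 0.0117, r = 0.56 without the 2 farthest) and the macrophage sum (r = 0.71, rho 0.69, permutation p = 0.000250 and 0.000470, adjusted 0.00517 and 0.0117, r = 0.61 without the 2 farthest). *Sfrp1*, *Fzd2*, *Fzd1* and *Wnt5a* had r between 0.51 and 0.55 with the stromal sum, each with an adjusted permutation p of 0.0414, rho between 0.48 and 0.61, and r between 0.45 and 0.56 without the 2 farthest. *Wnt7b*, a collecting duct ligand, had r = 0.57 with the collecting duct sum (rho 0.50, permutation p = 0.00403 and 0.0133, adjusted 0.0414 and 0.0640, r = 0.57 without the 2 farthest). *Wnt4* had r = -0.55 with the proximal tubule sum (rho -0.57, permutation p = 0.00817 and 0.00465, adjusted 0.0414 and 0.0465, r = -0.37 without the 2 farthest). By rank correlation, the relations of *Wnt7b*, *Fzd1*, *Fzd2* and *Wnt5a* with the marker sums had adjusted permutation p between 0.0640 and 0.0892.

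**Figure D5:**
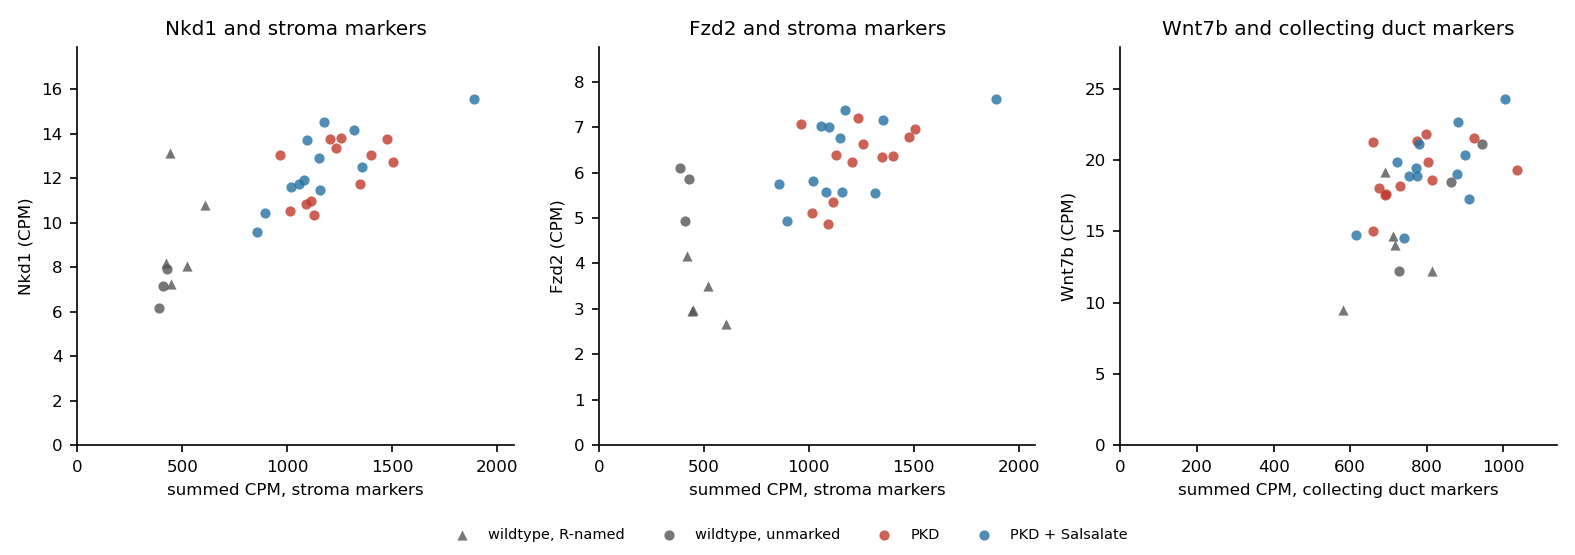
*Nkd1* and *Fzd2* (CPM) against the summed CPM of 10 stromal markers, and *Wnt7b* against that of 10 collecting duct markers, 1 point per kidney with axes from 0. Wildtype kidneys lie at stromal sums of 387 to 608 and PKD and PKD + Salsalate kidneys at 857 or more, while the collecting duct sums overlap.

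The genes most alike to each Wnt gene were taken from all 13961 by r over the same 24 kidneys, as a description without a test. *Wnt5a* was closest to *Abcc2* (r = 0.93) and *Pcyox1* (0.91). *Fzd1* was closest to *Serinc5* (0.91) and *Retreg3* (0.89), and *Wnt7b* to *Sec14l1* (0.86) and *Rab11fip4* (0.75). *Wnt4* was closest to *Nrip2* (0.85) and *Pbx2* (0.81), *Nkd1* to *Dnase1l1* (0.84) and *Selenon* (0.82), and *Sfrp1* to *Rfwd3* (0.84) and *Tspan9* (0.81). For *Fzd2* the first was *Snai1* (0.82), a transcription factor of mesenchymal cells, before *Ank* (0.78). The lowest values were those of *Wnt9b* with *Ppp6r2* (0.76) and *Tmprss2* (0.75), *Axin2* with *Dop1b* (0.74) and *Camk2g* (0.74), and *Wnt9a* with *Itgb6* (0.74) and *Gm42547* (0.73).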

How the data were processed

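Reads of poly(A) RNA, from a directional library kit, were aligned by the authors with STAR 2.7.5a to GRCm39 and counted by strand with HTSeq 0.12.4 on Ensembl genes, and the authors deposited these counts without normalization for 53700 genes in 32 kidneys. Per kidney 73.6% to 83.1% of alignments lay on genes. *Wnt5a*, *Wnt7b*, *Fzd2* and *Axin2* overlap an exon of a gene on the opposite strand.

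A gene was kept if its log2 CPM exceeded 1 in 25% of kidneys (8) or more, which left 13961, and the 10 Wnt genes passed. With TMM normalization the 3 groups were fitted together by the quasi-likelihood test of edgeR 4.0.16 (R 4.3.3), 2-sided, and p-values were adjusted over all genes by Benjamini-Hochberg (threshold 0.05). The script was tested on simulated data. Correlations used log2 CPM with a prior count of 2. Positions are from GENCODE on GRCm39, which matched 52610 gene identifiers, and promoters from RefSeq. The labels give groups and replicate numbers, and p-values measure the spread between mice. The fit had no term for the wildtype library set, so with all wildtype kidneys pooled this spread also takes in the difference between the 2 sets.

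The Wnt genes, the pathway list and the marker lists were chosen with earlier results of these data known. Other genes named are, in each role of the pathway and each comparison, the 2 with the largest called change, for each Wnt gene the 2 most alike, *Pkd1* and the markers. *Ccnd1*, *Celsr2*, *Lrp5*, *Ryk*, *Notum*, *Rnf43*, *Sp5*, *Znrf3* and *Wnt5b* were named after their values were seen. Alternatives were other size factors, filters, DESeq2 1.42.0, voom of limma 3.58.1, the 2 groups alone, a replicate block, each wildtype set and each kidney left out, and for correlations ranks and all 32 kidneys. Regressing out the total count was added after seeing the data. Replicate numbers did not pair the kidneys, since same-numbered wildtype and PKD kidneys deviated together (r over 0.1) in 3 of 8 pairs.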

Additional observations from a re-analysis of the deposited data

How the results depend on the processing

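The set of wildtype libraries mattered most. Against the 3 unmarked wildtype libraries alone (no R in the name), 3 of the 10 Wnt genes were called in PKD and 3 in PKD + Salsalate kidneys, in place of 8 and 7. Of all genes 40.5% were called in PKD kidneys against those libraries, and the share in PKD + Salsalate kidneys was not computed. The signs of *Wnt9b* and *Fzd1* turned against those 3, to -0.267 and -0.034 in PKD and to -0.266 and -0.146 in PKD + Salsalate kidneys, and *Axin2* in PKD + Salsalate kidneys went to -0.0042. What the set stands for was not tested. In a fit of the 2 groups alone, the PKD calls of *Wnt4* and *Wnt5a* were lost (edgeR adjusted p = 0.0689 and 0.0628). With limma-voom 9 were called in PKD and 9 in PKD + Salsalate kidneys. *Wnt9b* was gained in both (limma-voom adjusted p = 0.0325 and 0.0499) and *Wnt4* with salsalate (0.0382). The *Fzd1* call in PKD + Salsalate kidneys was lost with DESeq2 size factors, another filter, no filter and the 2 groups alone (edgeR adjusted p between 0.0538 and 0.0832).

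For salsalate against PKD, 1 of the 62 other pathway genes was called in place of 0 with DESeq2, with limma-voom, with the 2 groups alone and with either wildtype set. That was *Cd44* with limma-voom and *Ccnd1* in the others, and the cause was not tested. Values near 0 changed sign there: *Wnt9b* to -0.0038 with upper-quartile factors, -0.041 with limma-voom and -0.028 with the replicate block, and *Wnt7b* to -6.5e-05 with limma-voom. *Axin2* against wildtype in PKD + Salsalate kidneys was -0.0021 with limma-voom.

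The replicate block left 7 Wnt genes called in PKD against wildtype (*Wnt5a* lost, edgeR adjusted p = 0.0629), 0 against PKD with salsalate and 7 in PKD + Salsalate against wildtype (*Wnt4* gained, *Fzd1* lost). Since the numbers did not pair the kidneys, a call lost under the block is not read as a weaker effect.

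With each kidney left out in turn, 6 to 9 Wnt genes were called in PKD and 6 to 9 in PKD + Salsalate kidneys against wildtype, and 0 for salsalate against PKD. Of the other pathway genes 33 to 40, 27 to 36 and 0 to 2 were called. The 2 came without PKD + Salsalate replicate 11 (*Ccnd1* and *Cd44*), and *Ccnd1* alone was called without wildtype replicate 7 or PKD replicate 3. The salsalate log2 fold changes that changed sign in some of these fits ranged from -0.030 to 0.041 (*Wnt7b*), -0.055 to 0.055 (*Wnt9b*), -0.015 to 0.043 (*Fzd2*), -0.030 to 0.030 (*Sfrp1*) and -0.015 to 0.049 (*Nkd1*), and *Axin2* in PKD + Salsalate against wildtype from -0.026 to 0.073. Without PKD replicate 10, which held liver transcripts, 8 Wnt genes were called in PKD against wildtype.

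Of the 45 correlated pairs, 5 had an adjusted permutation p under 0.05 without the 2 farthest kidneys (4 of the 8, and *Wnt4* with *Nkd1*), 4 with the total count regressed out (each among the 8), 6 over all 32 kidneys (5 of the 8), 6 by rank (5 of the 8) and 6 without PKD replicate 10 (each among the 8). Over 300 single log2 fold changes under the other alternatives, 268 kept direction and call. *Wnt9a*, with 10 to 32 counts per wildtype kidney, has the least depth behind it.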
